A study of Mus musculus with 26 samples.

Results

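The zinc finger cluster on mouse chromosome 4 is a stretch of tandem zinc finger genes and pseudogenes around Zfp991. Its members were taken as all genes of the count tables on chromosome 4 whose lowest start lay in a fixed window of 3.2 Mb (GRCm38), which gave 112 of 55487 genes, from Tnfrsf1b (start at base 145213463) to Fbxo2 (start at base 148160621). RefSeq listed 35 of them as protein-coding, 48 as pseudogenes and 5 as transcribed pseudogenes, 18 had no RefSeq entry, and the rest were non-coding RNAs. The symbols of 18 members start with Zfp, and these are called the zinc finger members. The window was chosen by the HET against WT difference of Zfp991 in the counts of these same libraries, so every RNA difference within it is given as a description, without a p-value.

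RNA was sequenced from the frontal cortex of adolescent littermates. The 7 HET mice, labelled Mutant, carried a frameshift of Adnp on a single allele, and the 7 WT mice carried the wild-type gene. Open chromatin (ATAC-seq, which marks where a transposase can cut DNA) was deposited as 1 list of peaks for each genotype. ADNP, the protein of Adnp, is a zinc finger and homeodomain protein that forms the ChAHP complex with the chromatin remodeller CHD4 and HP1 proteins. No label ties an RNA library to more than a numbered mouse, so the spread given is that between these 14 libraries, and in bulk tissue fewer cells of a type and less RNA per cell cannot be told apart.

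Most Zfp genes of such clusters encode KRAB zinc finger proteins. An array of C2H2 fingers reads the DNA, and the KRAB domain recruits TRIM28 (KAP1), which brings the histone methyltransferase SETDB1 and HP1 and silences the bound sequence. The clusters grow by tandem duplication, differ between mouse strains, and in embryonic stem cells their proteins bind and repress endogenous retroviruses.

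Promoter sequences show how alike the copies are. RefSeq (GRCm38.p6) gave a promoter, defined as 250 bases before to 50 bases after the start, for 34 of the 112 members. These included 13 of the 19 genes that are zinc finger members or Rex2, a copy without counts described below. Zfp991, Zfp992 and Znf41-ps had no entry. The first 4 promoters below are printed because they include 3 copies with RNA in this tissue (Zfp982, Zfp979, Zfp984) and Rex2, which had no counts. The fifth is that of Zfp933, the most expressed zinc finger gene of the window. Capitals mark the letters TATTGGGCG, which were picked after the sequences had been looked at. All run 5′ to 3′ on the strand of the gene.
Zfp982, chr4:147492167-147492466, plus strand: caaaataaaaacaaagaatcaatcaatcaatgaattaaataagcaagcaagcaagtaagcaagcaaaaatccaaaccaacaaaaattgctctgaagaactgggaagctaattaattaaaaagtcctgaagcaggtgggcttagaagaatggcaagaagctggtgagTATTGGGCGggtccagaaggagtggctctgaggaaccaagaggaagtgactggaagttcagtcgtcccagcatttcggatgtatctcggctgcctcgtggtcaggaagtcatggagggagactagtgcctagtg
Zfp979, chr4:147642459-147642758, minus strand: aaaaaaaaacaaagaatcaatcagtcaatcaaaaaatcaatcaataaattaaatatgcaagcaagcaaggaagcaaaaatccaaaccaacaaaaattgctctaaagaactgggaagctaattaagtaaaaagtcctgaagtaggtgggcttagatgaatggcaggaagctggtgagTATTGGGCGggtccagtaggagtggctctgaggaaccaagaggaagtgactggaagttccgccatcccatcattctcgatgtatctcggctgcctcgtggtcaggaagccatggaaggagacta
Rex2, chr4:147021600-147021899, plus strand: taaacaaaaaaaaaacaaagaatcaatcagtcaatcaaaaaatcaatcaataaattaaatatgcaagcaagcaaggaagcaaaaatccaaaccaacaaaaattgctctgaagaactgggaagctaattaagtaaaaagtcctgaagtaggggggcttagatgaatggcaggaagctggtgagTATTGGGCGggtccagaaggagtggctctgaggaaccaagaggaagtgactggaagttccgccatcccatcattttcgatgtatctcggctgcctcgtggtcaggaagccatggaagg
Zfp984, chr4:147809739-147810038, minus strand: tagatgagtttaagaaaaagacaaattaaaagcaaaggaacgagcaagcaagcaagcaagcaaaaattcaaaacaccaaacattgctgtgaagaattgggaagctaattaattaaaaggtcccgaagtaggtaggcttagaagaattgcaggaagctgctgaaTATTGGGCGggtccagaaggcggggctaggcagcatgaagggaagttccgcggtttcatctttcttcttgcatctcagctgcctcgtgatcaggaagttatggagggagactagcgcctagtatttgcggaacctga
Zfp933, chr4:147848369-147848668, minus strand: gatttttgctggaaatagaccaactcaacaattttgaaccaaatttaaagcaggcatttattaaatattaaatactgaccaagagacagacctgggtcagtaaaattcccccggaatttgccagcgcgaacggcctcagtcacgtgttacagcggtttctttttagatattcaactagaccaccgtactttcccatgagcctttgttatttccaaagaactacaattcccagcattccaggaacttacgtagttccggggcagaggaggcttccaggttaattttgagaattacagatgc

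The run TATTGGGCG, searched on both strands, was in 11 of the 13 promoters and in 39 of all 32851 RefSeq promoters of the same length (0.119%). Those 39 promoters belonged to 34 genes, 12 of them in the window: the 11 zinc finger genes and Gm13212. In the printed promoters it began 84 bases before the start in Zfp982, 74 in Zfp979, 68 in Rex2 and 87 in Zfp984. It contains ATTGG, the core of the CCAAT box on the other strand, which was in the same number of zinc finger promoters (11 of 13) but in 37.4% of all promoters. GCTAATTAA, which also stands in the printed promoters with TATTGGGCG, was in 11 of 13 (0.149% of all promoters). Copies that are alike share long runs, so the low shares of both runs elsewhere follow in part from their choice. GGGCGG, the core of a GC box and partly overlapping TATTGGGCG, was in 9 of 13 (35.7%), and TATAAA in 0 of 13 (13.6%). The promoters of Zfp993 and Zfp933 held neither long run; the RefSeq starts of Zfp993 and Zfp981 lay 98112 and 12893 bases from the starts in the count tables' annotation. A match describes the letters and is not a binding site.

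Pairwise identity of the 13 promoters, over aligned columns, ran from 45.2% to 99.3% with a median of 71.5% over 78 pairs. Among the 11 promoters with the shared run the median was 77.0% over 55 pairs. Rex2 and Zfp600 were 99.3% identical, Rex2 and Zfp979 94.8%, Zfp979 and Zfp982 84.9%, and Zfp982 and Zfp984 73.8%. The promoter of Zfp933 was 50.1% identical to that of Zfp982 and at most 52.2% (Zfp981) to any other.

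**Figure D1:**
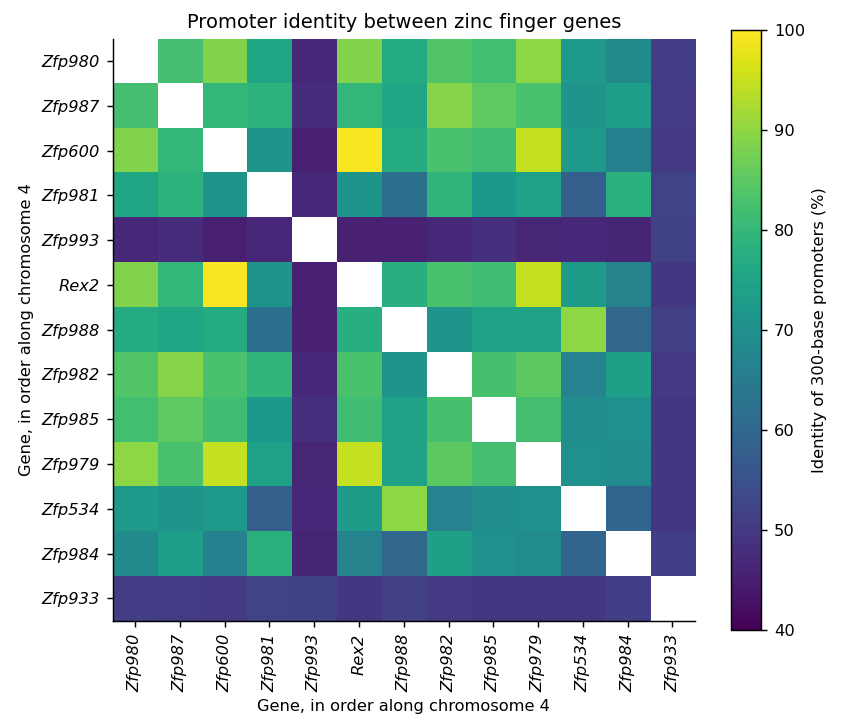
Identity (%) between the 300-base promoters of 13 zinc finger genes, in order along the chromosome on both axes; brighter squares are more alike and the diagonal is left blank. Zfp933 and Zfp993 form dark rows, while Rex2, Zfp600 and Zfp979 form the brightest squares.

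Only 24 of the 112 members had enough counts to be tested, 6 zinc finger members and 18 others. Of these 24, edgeR (quasi-likelihood, Benjamini-Hochberg over all genes, threshold 0.05) called 3, all higher in HET: Zfp991, Zfp992 and Znf41-ps. Over all 18050 genes tested the share called was 0.97%, with 0.587% called higher and 0.382% lower. At a threshold of 0.1 it called 3 members still, against 6.62% of all genes. DESeq2 called 4 members (7.42% of all genes) and limma-voom 6 (10.4%). The contrast that chose the window also gave these counts, and nothing is read from the comparison. The median log2 fold change (HET over WT) was 0.90 over the 6 tested zinc finger members, 0.06 over the 18 other tested members and 0.02 over all genes tested.

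Zfp991 (ENSMUSG00000067916, chr4:147132038-147180579, plus strand) is the gene the window was built around. Levels are counts scaled to library size by TMM (CPM). In HET it ran from 3.02 through a median of 3.42 to 4.30 CPM, and in WT from 1.38 through 1.92 to 2.37 CPM. All 7 HET libraries lay above all 7 WT libraries. The means were 3.51 ± 0.460 and 1.93 ± 0.326 CPM (SD, n = 7 each), a log2 fold change of 0.86 with an SE of 0.14, or 1.82-fold. These levels rested on 986 counts in HET and 555 in WT over all libraries.

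Zfp992 (ENSMUSG00000070605, chr4:146449023-146470292, plus strand), the next tested gene below Zfp991, rose too. Its lowest, median and highest levels were 1.12, 1.38 and 1.56 CPM in HET and 0.284, 0.415 and 0.953 CPM in WT. The groups did not overlap, although the WT libraries spread over a wider range than the HET libraries. The log2 fold change was 1.35 (SE 0.27) on 374 and 146 counts. Zfp991 and Zfp992 were the only tested members with groups that did not overlap; 0.432% of all genes tested had all HET libraries above all WT libraries, and 0.283% had all below.

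Znf41-ps (ENSMUSG00000084350, chr4:145825237-145829942, plus strand) is a transcribed zinc finger pseudogene. It ran from 2.01 through 2.69 to 3.64 CPM in HET and from 0.908 through 1.38 to 2.39 CPM in WT. The groups touched, with 6 HET libraries above all WT libraries and WT 2 at 2.39 CPM above HET 1. The log2 fold change was 0.96 (SE 0.21).

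Zfp982 (chr4:147492417-147513486, plus strand) and Zfp979 (chr4:147611937-147642513, minus strand; listed with the synonym Ssm1b, a strain-specific modifier of DNA methylation at transgenes) lie on the other side of Zfp991. Zfp982 ran from 0.287 through 1.95 to 2.50 CPM in HET and from 0.674 through 0.881 to 1.29 CPM in WT. In 6 HET libraries it lay above every WT library, and in HET 6 below every one. Its log2 fold change of 0.94 (SE 0.33) was not called.

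Zfp979 ran from 0.520 through 2.24 to 2.82 CPM in HET and from 0.414 through 0.727 to 1.71 CPM in WT, a log2 fold change of 1.03 (SE 0.41) that was not called. HET libraries 1, 2, 4 and 7 lay above all WT libraries, and HET 3, 5 and 6 lay inside the WT range. The same HET libraries, 1, 2, 4 and 7, were the 4 highest HET libraries for Zfp991 and Zfp982, and for Tnfrsf1b, Clcn6, Agtrap and Fbxo44. This made 7 of 24 tested members, where 10.2% of all genes tested had the same 4 libraries on top. These 4 libraries were also the highest HET libraries in the summed level of oligodendrocyte markers (5358 to 7850 CPM, against 1732 to 4837 CPM in HET 3, 5 and 6) and of thalamus markers (174.6 to 985.9 CPM, against 90.9 to 156.1 CPM). In WT these lists ran from 3446 to 5847 CPM and from 88.9 to 352.9 CPM. The 4 libraries were picked from the levels of Zfp991, Zfp982 and Zfp979, so these genes match by choice, and 10 marker lists were looked at. In WT, Zfp991 and Zfp979 were highest in WT 4 and WT 7, the WT libraries highest in oligodendrocyte markers. Zfp982 was highest in WT 1 and WT 2, the WT libraries lowest in them. The part of these cell types in the pattern was not tested.

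Zfp984 and Zfp933, the last zinc finger members along the chromosome, did not share these folds. Zfp984 (chr4:147753974-147809788, minus strand) ran from 1.79 through 2.395 to 2.93 CPM in HET and from 1.99 through 2.70 to 3.51 CPM in WT, and the log2 fold change was -0.21 (SE 0.16). Zfp933 (chr4:147822986-147848366, minus strand) ran from 12.8 through 15.3 to 17.5 CPM in HET and from 13.1 through 13.7 to 17.5 CPM in WT (log2 fold change 0.05, SE 0.09). In both genes the 2 groups overlapped over most of their range.

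Per length, Zfp933 was the most abundant zinc finger member, at a WT mean of 3.42 RPKM (CPM per kilobase of exon). Zfp984 followed at 0.960, Zfp991 at 0.663, Zfp982 at 0.605, Zfp979 at 0.209 and Zfp992 at 0.115 RPKM. Copies that are alike can share reads, but only promoters were compared here, and the likeness of the transcripts was not measured. Reads that map to several places were left out, so a level here counts only the unique part of each gene and is uncertain. Strand was ignored in counting. Gm20707 overlaps Zfp984 on the same minus strand, so RNA of these genes cannot be told apart where their exons overlap.

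**Figure D2:**
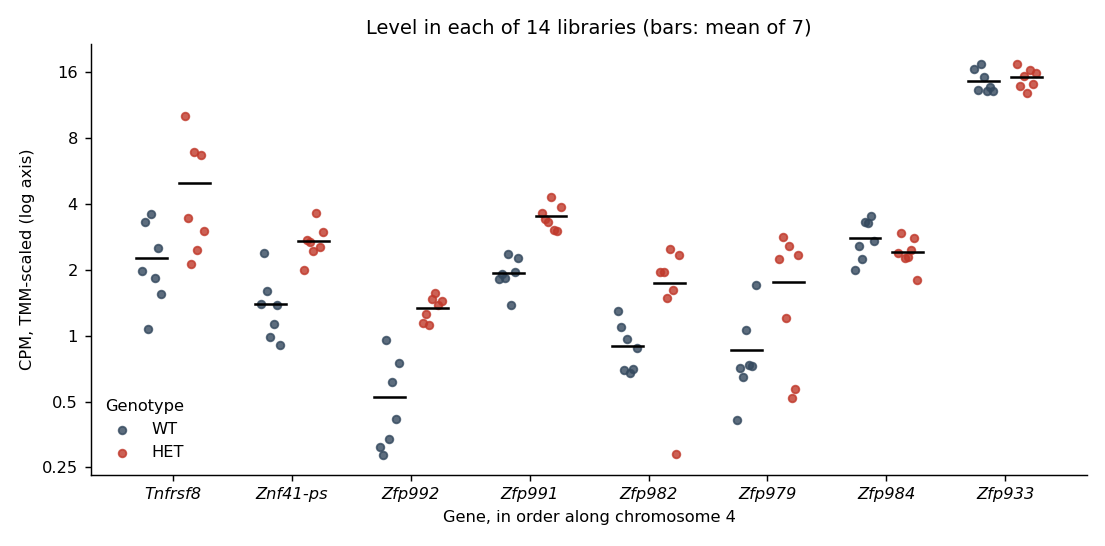
CPM on a log axis for 8 genes in order along the chromosome; each point is 1 of 7 WT (dark) or 7 HET (red) libraries and the bar is the group mean. Zfp991 and Zfp992 show no overlap, Zfp982 has 1 low HET library at 0.287 CPM, and Zfp984 and Zfp933 overlap.

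The other 12 zinc finger members were too low to test. Zfp993 had 73 counts over the HET and 41 over the WT libraries, Zfp988 had 47 and 34, Zfp986 had 35 and 20, and Zfp981 had 27 and 10. Zfp990 had 9 and 2, and Zfp985 had 0 and 12. Zfp600, Zfp534, Zfp978, Zfp980, Zfp987 and Zfp989 each had at most 6 counts in a genotype. Summed over all 12, HET libraries had 0.706 ± 0.306 CPM and WT libraries 0.473 ± 0.265 CPM (SD, 7 libraries each), and the groups overlapped.

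Rex2, a zinc finger gene whose promoter is printed above, had 0 counts in all 14 libraries. A count of 0 allows up to 3 counts, or 0.00531 CPM over the pooled libraries, for counting error only. Reads that map to several places were left out, so RNA that Rex2 shares with its copies would not be seen. In all, 88 members were not tested, of which 29 had 0 counts in every library, and no single count exceeded 31. Their sum was 3.54 ± 0.448 CPM in HET (3.02 to 4.29) and 2.55 ± 0.253 CPM in WT (2.19 to 2.82), with all 7 HET libraries above all WT libraries. The sum rested on 995 and 720 counts. Its part from the 12 untested zinc finger members overlapped between the groups, as given above. No such sum was formed for untested genes elsewhere, so no share over all genes stands beside it.

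The non-zinc-finger neighbours at the lower end are tumour necrosis factor receptors. Tnfrsf8 (CD30; chr4:145267137-145315164, minus strand), the nearest of them to the cluster, ran from 2.13 through 3.44 to 10.1 CPM in HET and from 1.07 through 1.97 to 3.60 CPM in WT. Only HET 1, 4 and 6 lay above all WT libraries. Its log2 fold change of 1.13 had an SE of 0.37 and was not called. Tnfrsf1b, which encodes TNF receptor 2 and is the first tested gene inside the window, was at 0.08 (SE 0.13), and Vps13d, the last tested gene before it, at 0.05 (SE 0.09).

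At the upper end lie the members with the highest levels, though not all genes there are high (Draxin had a WT mean of 1.14 CPM). Mfn2, which drives the fusion of mitochondria, ran from 245.1 through 256.2 to 283.9 CPM in HET and from 239.5 through 264.6 to 283.3 CPM in WT (log2 fold change -0.00, SE 0.05). Fbxo2 and Fbxo44, F-box subunits of ubiquitin ligases, had log2 fold changes of -0.03 (SE 0.09) and 0.05 (SE 0.06). Fbxo2 ran from 66.1 through 78.5 to 92.7 CPM in HET and from 71.5 through 72.8 to 90.9 CPM in WT, and Fbxo44 from 86.8 through 103.0 to 109.2 and from 90.2 through 93.9 to 103.9 CPM. In these 3 genes the HET and WT ranges largely coincided.

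Clcn6, an endosomal chloride-proton exchanger, ran from 112.6 through 134.1 to 164.7 CPM in HET and from 111.6 through 114.3 to 123.3 CPM in WT. HET 1, 2, 4 and 7 lay above all WT libraries and the other HET libraries among them. The log2 fold change of 0.25 (SE 0.08) was not called. The uncharacterised 2510039O18Rik ran from 22.3 through 25.6 to 28.9 CPM in HET and from 25.5 through 27.2 to 29.7 CPM in WT (-0.09, SE 0.06), with overlapping groups.

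No other tested member was called. Fv1, a gene of retroviral origin that restricts murine leukaemia virus, had a log2 fold change of -0.19 (SE 0.19). Values were 0.23 for Miip, 0.12 for Plod1 (a collagen lysyl hydroxylase), 0.36 for Agtrap and 0.01 for Draxin (an axon guidance protein). Mad2l2 was at 0.10, Fbxo6 at -0.12, Rps19-ps3 at -0.10 and Gm13054, which overlaps Nppa on the other strand, at 0.20. The last tested gene inside the window was Fbxo2, and the first beyond it, Disp3, was at -0.19 (SE 0.09).

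**Figure D3:**
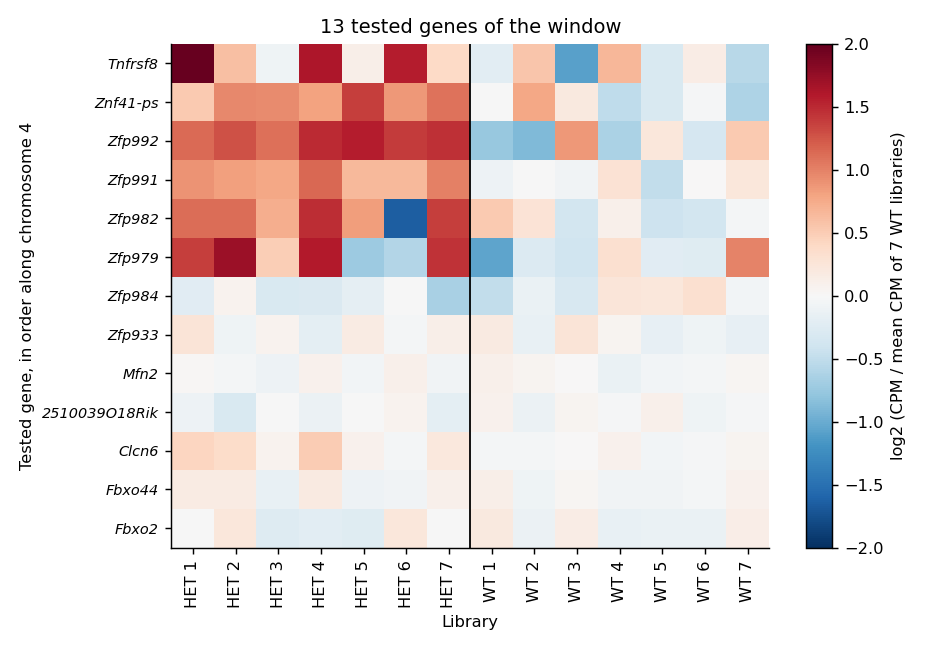
Colour gives log2 of CPM over the mean of the 7 WT libraries for 13 tested members (rows, in order along the chromosome) in 14 libraries (columns; the line separates HET from WT). Red of varied depth fills the HET side from Tnfrsf8 to Zfp979. The exceptions are Zfp982 in HET 6, Zfp979 in HET 5 and 6 and Tnfrsf8 in HET 3 and HET 5. Most squares from Zfp984 onwards are pale.

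Along the chromosome the 6 consecutive tested members from Tnfrsf8 to Zfp979 all had log2 fold changes between 0.86 and 1.35 (median 0.99). This stretch was picked after its values were seen; 80 members lie in it, so the 6 are a small part. The 17 tested members above Zfp979 ran from -0.21 to 0.36 with a median of 0.03. Of all genes tested, 3.14% had a log2 fold change at least that of Zfp991, and 5.37% of the 4563 with a WT mean of 0.5 to 5 CPM did.

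Beyond the window, none of 11 tested genes in the 3 Mb below and of 43 in the 3 Mb above was called by edgeR, with medians of -0.04 and 0.04. Their log2 fold changes ran from -0.78 to 0.92 below and from -0.91 to 1.11 above, so folds as large as that of Zfp991 were found on both sides. At an unadjusted p under 0.05 there were 2 and 7, where 4007 of all 18050 genes tested passed. DESeq2 called 1 lower below and 1 higher above (7.42% of all genes). By limma-voom 1 was lower below, and 2 were higher and 1 lower above (10.4% of all genes).

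Other zinc finger clusters were described from the same fit. Of 4 tested Zfp genes in the cluster near the end of chromosome 2, none was called by edgeR (median log2 fold change -0.10; 1 at an unadjusted p under 0.05; 0 by DESeq2 and 0 by limma-voom). Of 27 tested in the cluster on chromosome 13, none was called by edgeR (median -0.04; 2 at an unadjusted p under 0.05, against 4007 of 18050 genes; 1 lower by DESeq2 and 0 by limma-voom). Among all 369 tested Zfp genes outside the window 1 was called, Zfp783 on chromosome 6, with HET at 15.5 ± 2.81 CPM and WT at 9.95 ± 1.49 CPM (SD over 7 libraries), and the median log2 fold change was 0.02. At an unadjusted p under 0.05 there were 64 of the 369, against 4007 of 18050 genes. By DESeq2 10 of the 369 were higher and 7 lower, and by limma-voom 17 and 6. Over all genes tested the shares called were 0.97% by edgeR, 7.42% by DESeq2 and 10.4% by limma-voom. Whether the cluster differed from these genes was not tested.

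Of 30 genes for proteins that silence chromatin with KRAB zinc fingers, such as Trim28, Setdb1 and the HP1 genes, all were tested and edgeR called none (median 0.03; 5 at an unadjusted p under 0.05, against 4007 of 18050 genes; 1 higher by DESeq2 and 1 higher by limma-voom). The 2 most abundant per length, Chd3 and Ehmt2, had log2 fold changes of 0.14 (SE 0.08) and -0.07 (SE 0.08).

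**Figure D4:**
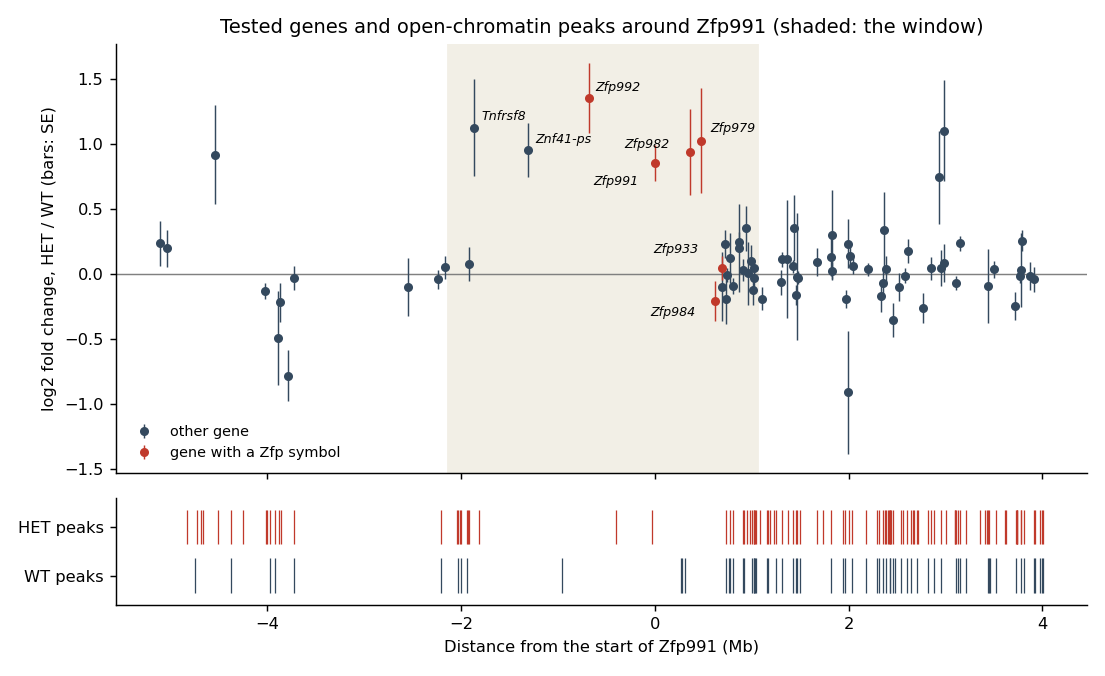
Upper panel: log2 fold change (HET over WT, bars SE) of tested genes against distance in Mb from the start of Zfp991, with the window shaded; lower panel: the midpoint of each ATAC-seq peak of the 2 lists. The 6 genes from Tnfrsf8 to Zfp979 lie between 0.86 and 1.35, over a stretch that holds few peaks.

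Open chromatin was sparse over the cluster in both lists. From the end of Tnfrsf8 to the end of Zfp933 (2.533 Mb) the HET list held 3 peaks (1.18 per Mb) and the WT list 4 (1.58 per Mb), where chromosome 4 as a whole held 12.48 and 7.64 per Mb. No peak was shared there; on chromosome 4 as a whole 882 of 1951 HET peaks and 131 of 1195 WT peaks overlapped none of the other list. The HET peaks were at chr4:145320703-145321130 and chr4:146729250-146729397, outside genes, and at chr4:147102122-147102441, over the start of the pseudogene Gm13142. The WT peaks were at chr4:146174566-146174763, in an intron of Zfp600, at chr4:147404598-147404749 and chr4:147410327-147410504, outside genes, and at chr4:147443389-147443742, over the start of Gm13161.

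The part of the window above Zfp933 held 12 peaks in HET and 11 in WT (34.13 and 31.28 per Mb), of which 10 were shared. In the whole window there were 22 HET and 18 WT peaks, of which 13 in each list overlapped a peak of the other. The HET list held 30862 peaks in all and the WT list 19272. With 1 merged list per genotype there is no replicate and no test.

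No start site of the 18 zinc finger members had a peak within 1000 bases in either list. Only 6 of these were tested, and the shares that follow are over tested genes. The share was 63.6% (HET) and 57.2% (WT) over all genes tested, 34.6% and 28.4% over tested genes under 5 CPM in WT, and 299 and 272 of 369 tested Zfp genes outside the window. Among the tested members named here, Miip, Fv1, Mfn2, 2510039O18Rik, Clcn6, Fbxo6, Fbxo44 and Fbxo2 had one in both lists and Agtrap in the HET list. The sources used here do not say how reads that map to several copies were treated before peaks were called, and the part of this in the sparse peaks was not tested.

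**Figure D5:**
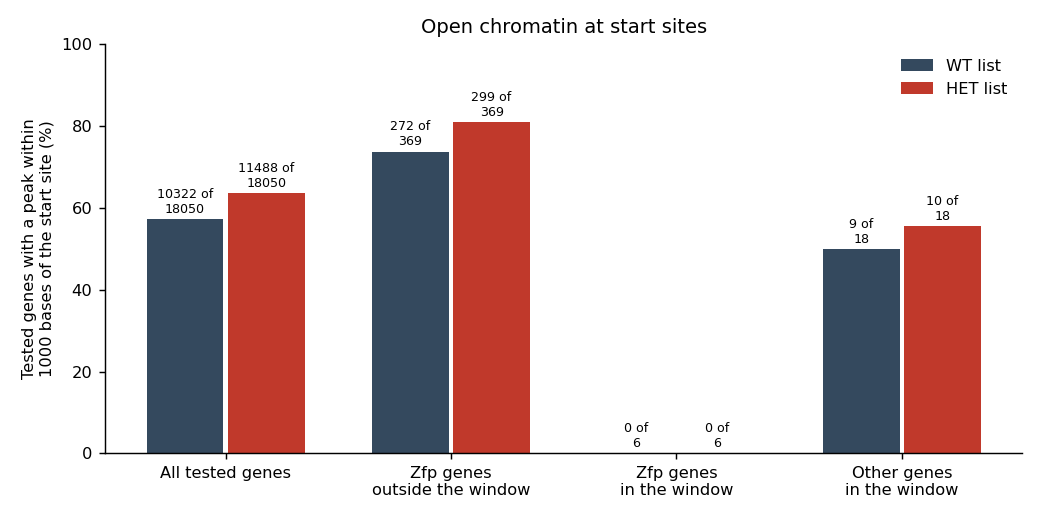
Share (%) of tested genes with an ATAC-seq peak within 1000 bases of the start site in the WT (dark) and HET (red) list, with the number of genes above each bar. The bars for the 6 tested zinc finger members are at 0, against 272 and 299 of 369 for the other Zfp genes.

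Across the series, libraries held 32814841 to 48291175 counts. Adnp averaged 6.90 ± 1.30 CPM over HET and 6.55 ± 0.875 CPM over WT libraries (SD, 7 each), and a frameshift need not lower its RNA, so this does not check the labels. Cortical markers were present in all libraries. No gene of the 10 marker lists was called, against 0.97% of all genes tested, which does not show equal cell content. The summed level of 6 excitatory neuron markers (none at 0) ran from 820.6 to 5310 CPM in HET and 2318 to 6336 CPM in WT, with HET 1 and HET 4 below all WT libraries. The 4 oligodendrocyte markers ran from 1732 to 7850 CPM in HET and 3446 to 5847 CPM in WT. They were lowest in HET 6, which was also the lowest HET library for Zfp991 and Zfp982 but not for Tnfrsf8, Znf41-ps, Zfp992 or Zfp979. HET 6 was also the highest library in the 3 choroid plexus markers, at 718.2 CPM, where WT libraries reached 408.4 CPM. The 4 microglial markers ran from 156.5 to 224.7 CPM in HET and 203.3 to 236.1 CPM in WT, with 5 HET libraries below all WT libraries. With the excitatory marker level as a covariate the log2 fold changes were 0.70 for Zfp991, 1.42 for Zfp992 and 1.19 for Znf41-ps, and no member was called, with 13 genes called in all. In that fit Zfp979 was at 0.54, Tnfrsf8 at 0.65, Zfp982 at 0.65 and Clcn6 at 0.09, and the median over the tested zinc finger members was 0.60 in place of 0.90.

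The calls depended on single libraries. Leaving out each library in turn kept Zfp991 called in 10 of 14 fits (lost without HET 1, HET 7, WT 1 or WT 6), Zfp992 in 5 (kept without HET 3, HET 5, HET 6, WT 3 or WT 4) and Znf41-ps in 3 (kept without HET 6, WT 2 or WT 4). The log2 fold changes stayed between 0.79 and 0.91, 1.25 and 1.57, and 0.87 and 1.14.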

How the data were processed

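RNA values are the authors' deposited raw counts per gene. Exons of Ensembl release 102 were counted with featureCounts 2.0.1, strand ignored (0), per the file headers; STAR, Trimmomatic and GRCm38.p6 were named per the submitters' processing notes. The ATAC-seq files are the authors' deposited peak positions on mm10, without height or q value. The sources used here give neither the libraries merged into each list nor the caller's settings (MACS3 was named per the submitters' processing notes).

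Genes were filtered with filterByExpr and scaled by TMM. The test was edgeR 4.0.16's robust quasi-likelihood test (two-sided, Benjamini-Hochberg over 18050 genes, threshold 0.05, common biological coefficient of variation 0.248). The fit was also run on simulated counts with 200 changed genes. These were drawn with the same spread for all genes and no differences in cell content between libraries, so the run checks the code only. DESeq2 1.42.0 and limma 3.58.1 were alternatives. The SE of a log2 fold change was worked back from the edgeR test, as its size over the square root of the F statistic. RPKM uses the exon length of the count tables. Zinc finger members were set by symbol, since no protein table was used. Genes named are Zfp991, members called or not overlapping, the 5 most abundant zinc finger and 5 other members per length in WT, and the 3 tested neighbours on each side of Zfp991; the rest are given by fold or counts. Promoters were aligned end to end (Biopython 1.88). The planned printing of proteins and of promoters with a peak was replaced by the promoters shown, chosen after the files were seen. The members and lists were chosen with earlier results of these data known. Replicate numbers did not pair the libraries. Hi-C, PAT and Control samples were not analysed here, and 1 tested member is not reported here by name.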

Additional observations from a re-analysis of the deposited data

Results flagged for a closer look

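In 2 of the 48 groups of 7 libraries formed by the 24 tested members, the highest library stood apart from the other 6 (gap over range above Dixon's critical value for 7). Tnfrsf1b reached 8.02 CPM in WT 6, with a gap of 0.617 of the range, and Fbxo6 reached 22.8 CPM in HET 6, with a gap of 0.652. Chance flags about 1 group in 20.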

How the results depend on the processing

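The number of window members called (3) was 0 with a replicate block, 6 with limma-voom and 0 with the excitatory marker covariate, and ran from 0 to 6 when each library was left out. The number of zinc finger members called (2) was 0 with the replicate block and 0 with the covariate, and ran from 0 to 3. The block also lowered the calls over all genes from 175 to 10, and same-numbered libraries correlated between -0.284 and 0.334, with 1 of 7 HET libraries correlating best with its own number. Without the filter on low counts 2 members were called, and Znf41-ps was not. DESeq2 called 1403 genes and added Tnfrsf8; limma-voom called 1886 and added Zfp982, Clcn6 and, lower, Fbxo6. Without HET 6, Zfp982, Clcn6 and Fbxo6 were called as well. Leaving out 1 library moved the calls over all genes between 11 and 1672. When HET 1, HET 4 and WT 4, the 3 libraries with the lowest excitatory marker level, were left out (chosen after seeing the data), the same 3 members were called. Medians stayed at 0.82 to 1.01 for zinc finger and 0.04 to 0.10 for other members over the left-out libraries, and the zinc finger median was 0.60 with the excitatory marker covariate. With both lists cut to peaks of at least 300 bases, the HET list held 14 peaks in the window in place of 22. The WT list held 15 in place of 18, so the order of the lists turned in the number of peaks. Of these, 5 HET peaks in place of 9 and 6 WT peaks in place of 5 overlapped no such wide peak of the other list. A wide WT peak over a narrower HET peak counts as unshared here, as at chr4:147940742-147941169. The unshared counts therefore cannot be set against those of the full lists. No direction of a called value reversed. Low counts limit the window: 88 of its 112 members were not tested.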
